A study of Homo sapiens with 23 samples.

Results

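Claudins are the membrane proteins that build the strands of tight junctions, the seals between neighbouring epithelial cells. Some close the space between cells, and others form channels there that pass selected ions or water. Their cytoplasmic ends bind scaffold proteins, among them those encoded by TJP1 and TJP3. In ovarian carcinoma the sealing claudins CLDN3 and CLDN4 are known for their high levels. The 10 claudin genes described here (CLDN1, CLDN2, CLDN3, CLDN4, CLDN7, CLDN9, CLDN10, CLDN11, CLDN12 and CLDN16) were taken by their NCBI Gene IDs from a table of 21658 genes, and all 10 had a row. They were chosen with results of these data known, and CLDN11 was chosen because its values were higher in all 4 resistant lines. The difference of CLDN11 between resistant and parental cells is therefore given as a description, without a test. For the other 9 genes that comparison was tested in a fit over all genes.

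The libraries came from 4 established human ovarian cancer cell lines, OV-90, Kuramochi, OVSAHO and EFO-21. Each line was present as parental cells and as a derivative made resistant to prexasertib, an inhibitor of the checkpoint kinase CHK1, by long-term culture in rising drug concentrations. There were 3 libraries for each of these 8 groups, except for parental OV-90 with 2, which gave 23 libraries. Each resistant derivative may stand for only 1 culture history of its line. The labels call the libraries of a group biological replicates but do not say whether they came from separate selections, so the p-values measure the spread between these libraries. Values are on the authors' log2 scale after quantile normalization. The median value of a library was 6.01, and values up to the 10th percentile of a library (1.70 to 1.87) are called the bottom of the scale. A difference that rests on a group at the bottom is not a measured fold change. The table gives no read counts, so the depth behind a value is unknown. A gene is called changed at an adjusted p under 0.05 with a difference of at least 2-fold (1 on the log2 scale). Levels are compared between libraries for 1 gene at a time, since the values are not set per length of transcript.

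The lines were checked against markers of ovarian carcinoma epithelium. PAX8, a transcription factor of this lineage, was between 8.42 and 9.50 in the libraries of Kuramochi, OVSAHO and EFO-21. In OV-90 it was between 1.77 and 2.43, and WT1, another marker of serous carcinoma, was between 1.47 and 2.09 there. WT1 was also at the bottom in all EFO-21 libraries, with a highest value of 1.21. The epithelial adhesion molecule EPCAM was between 12.14 and 12.45 in OV-90, so this line carried an epithelial marker without PAX8 or WT1. The summed level of 5 leukocyte markers was between 11.82 and 12.49 in OV-90 and at most 7.79 in the other lines, and that of 6 fibroblast markers was between 12.09 and 13.25 in OV-90 and at most 9.02 elsewhere. In OV-90 these sums were nearly all 1 gene, LYZ (11.73 to 12.46) and LUM (12.02 to 13.21), while PTPRC was at most 4.29, PDGFRB at most 2.74 and THY1 at most 3.20. The summed level of 4 endothelial markers was between 9.81 and 10.11 in EFO-21 and at most 7.82 in the other lines. In EFO-21 this sum was mainly CDH5 (9.03 to 9.43) and PECAM1 (8.45 to 8.59), while VWF was at most 3.99 and CLDN5 at most 4.69. In resistant Kuramochi CDH5 was between 7.48 and 7.71.

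A group of 5 parental libraries stood apart from the other 18 in immunoglobulin and KRT14 values. In library 2 of OV-90, library 6 of Kuramochi and libraries 7, 8 and 9 of OVSAHO, the immunoglobulin light chain genes IGLC2 and IGLC3 and the squamous keratin genes KRT6A and KRT14 were all above 6. IGLC2 was between 6.78 and 8.49 in these 5 libraries and at or below 1.36 in every other library. KRT14 was between 6.73 and 7.16 in them and at or below 2.73 elsewhere. The summed level of the 4 squamous markers KRT5, KRT6A, KRT14 and TP63 was between 8.78 and 9.0 in parental OVSAHO and between 3.21 and 3.81 in resistant OVSAHO. Other squamous keratins were also present in Kuramochi libraries 4 and 5, with KRT6A at 6.04 and 6.30 and KRT5 at 5.73 and 5.75. In resistant Kuramochi KRT6A was between 1.83 and 2.58 and KRT5 between 0.20 and 0.36, so leaving out library 6 does not remove the squamous difference there. IGLC2 and IGLC3 were picked after looking at the values. No parental OVSAHO library was free of these genes, so in OVSAHO this difference and resistance cannot be told apart. In Kuramochi and OV-90 the results were also computed without library 6 or library 2. Without library 2 or 3, parental OV-90 is 1 library, the spread within the line comes from the resistant libraries alone, and the remaining parental library is assumed to vary like them.

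**Figure D1:**
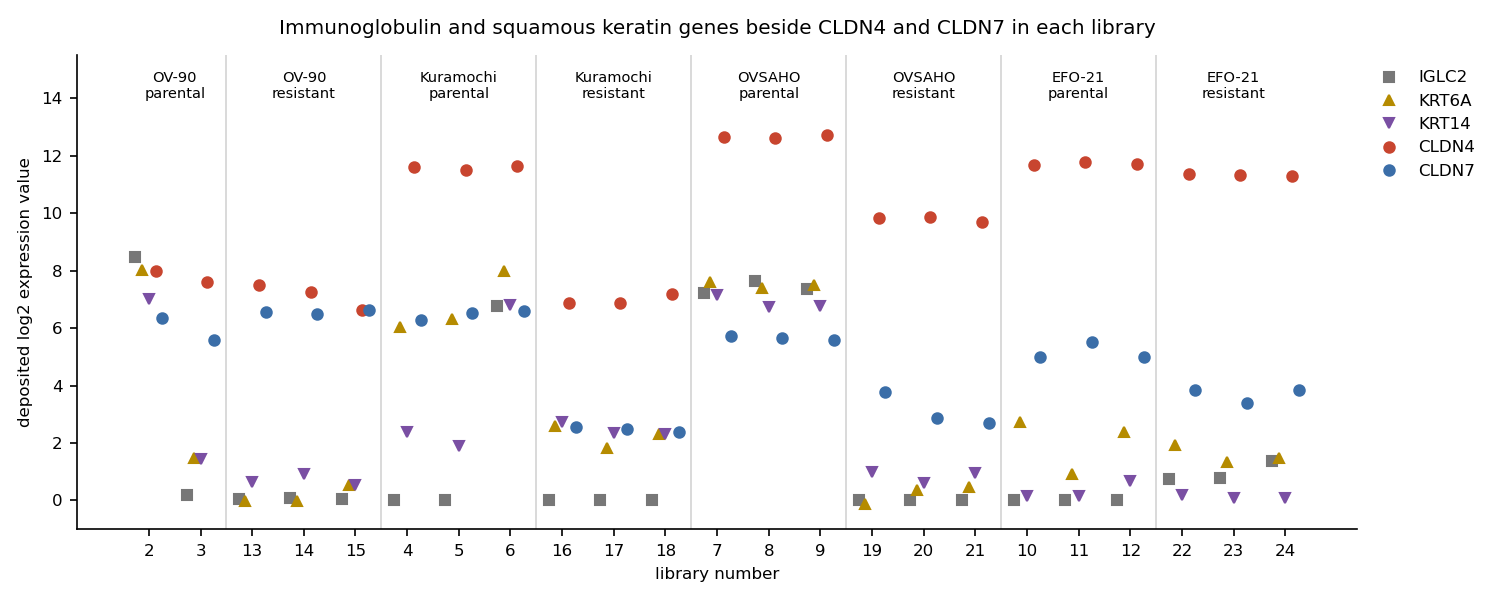
Deposited log2 values (y axis) of IGLC2, KRT6A, KRT14, CLDN4 and CLDN7 in each of the 23 libraries (x axis, library number, grouped by line and state). IGLC2 and KRT14 lie above 6 in libraries 2, 6, 7, 8 and 9 and near the bottom of the scale elsewhere, while CLDN4 and CLDN7 in library 6 lie within 0.20 of the mean of the other parental Kuramochi libraries.

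The members varied widely between the parental lines. Of the 10 genes, 7 differed between OV-90 and Kuramochi (47.0% of all genes did), 7 between OV-90 and OVSAHO (48.1% of all genes) and 9 between OV-90 and EFO-21 (50.2% of all genes). Between Kuramochi and OVSAHO 8 members differed (37.6% of all genes), between Kuramochi and EFO-21 7 (41.3%) and between OVSAHO and EFO-21 7 (44.2%). In each pair the share of members was above that of all genes, but the members were listed with these data known. The range of the 4 parental means was widest for CLDN16 (10.12 on the log2 scale) and narrowest for CLDN7 (1.30) and CLDN12 (1.40). EFO-21 had the highest parental mean for CLDN1, CLDN10, CLDN11, CLDN12 and CLDN16, OVSAHO for CLDN3, CLDN4 and CLDN9, and Kuramochi for CLDN2 and CLDN7.

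In the resistant lines the changes of the 9 tested members were mostly falls, outside OV-90. In Kuramochi 0 rose and 7 fell, beside 11.8% of all genes that rose and 10.6% that fell. In EFO-21 0 rose and 5 fell, beside 7.11% and 7.15% of all genes. In OVSAHO 0 rose and 3 fell, beside 3.93% and 3.83% of all genes. In OV-90 2 rose and 0 fell, beside 9.50% and 6.56% of all genes. Of the 36 tests, 15 gave a fall, 2 a rise and 19 neither. Each of the 9 members fell in at least 1 line, and CLDN1 and CLDN12 also rose in OV-90. The median log2 change of the 9 members was -1.74 in Kuramochi, -1.41 in EFO-21, -0.70 in OVSAHO and 0.12 in OV-90, where the median over all genes lay between -0.06 and 0.01. At an unadjusted p under 0.05, limma gave 0 rises and 7 falls in Kuramochi and 0 rises and 8 falls in EFO-21. It gave 1 rise (CLDN1) and 5 falls in OVSAHO, and 3 rises and 1 fall (CLDN2) in OV-90. The share of all genes at this cutoff is not given here, so these counts have no background beside them. In these bulk libraries, fewer cells with a transcript and less of it per cell cannot be told apart.

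**Figure D2:**
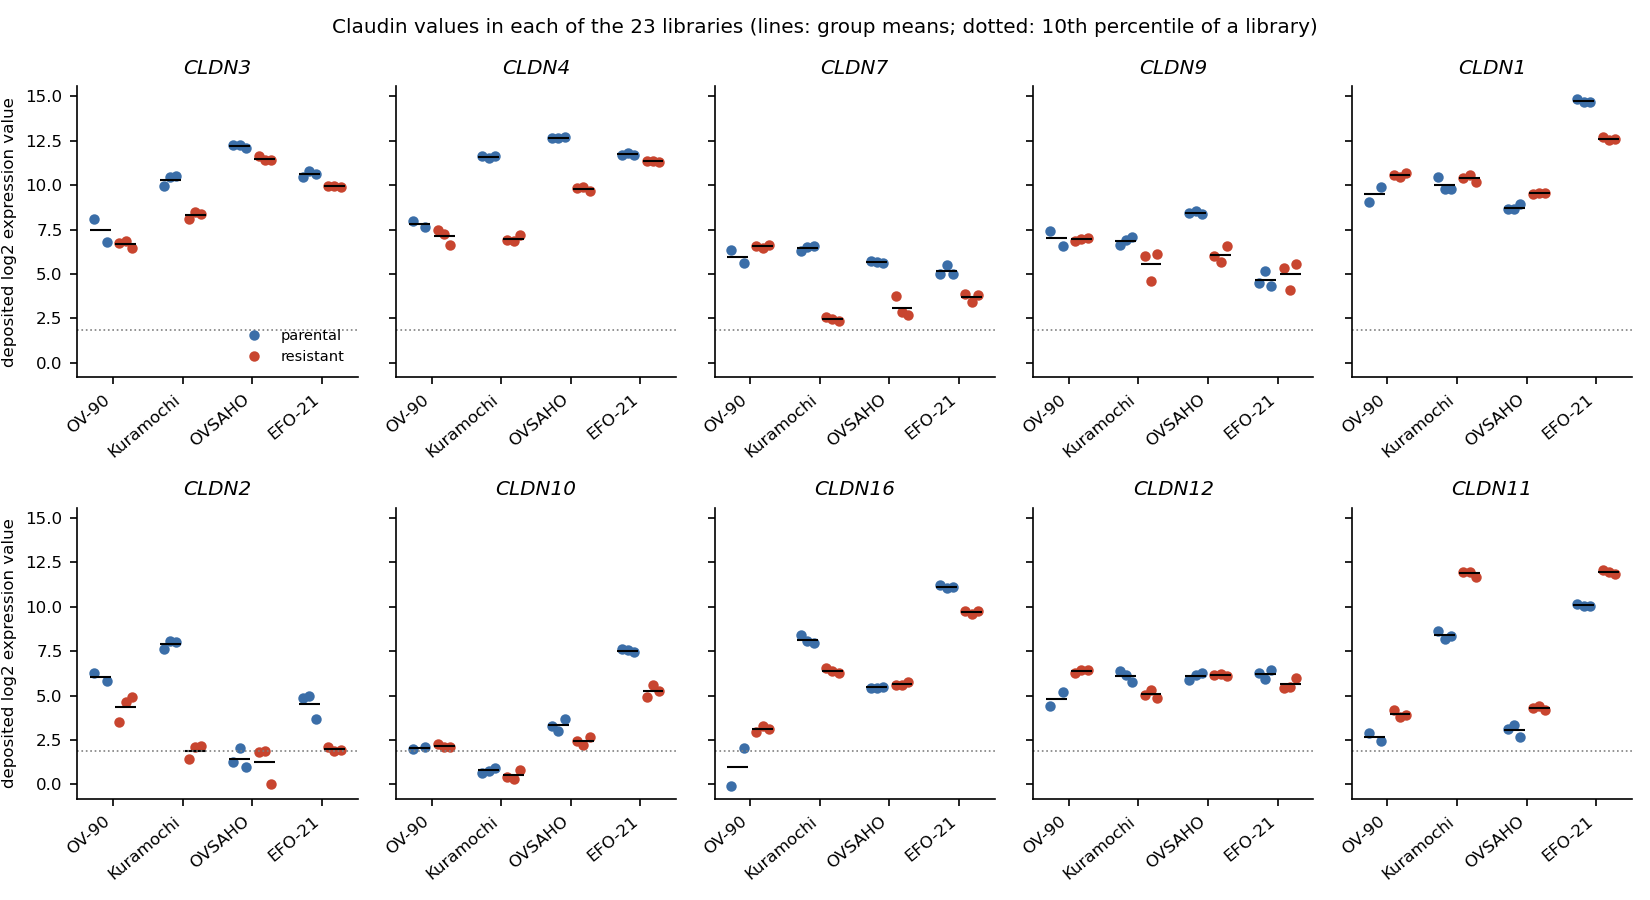
Deposited log2 expression value (y axis) of the 10 claudin genes in every library of the 4 lines (x axis), with parental libraries in blue, resistant libraries in red and the group mean as a black line; the dotted line marks the highest 10th percentile of a library (1.87). CLDN4 and CLDN7 drop in Kuramochi and OVSAHO, CLDN1, CLDN10 and CLDN16 are highest in EFO-21, and CLDN11 is higher in the resistant libraries of each line.

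CLDN3 and CLDN4 encode sealing claudins of many epithelia and both bind the enterotoxin of Clostridium perfringens. The genes are neighbours on chromosome 7 (GRCh37: CLDN3, 73183327 to 73184600, minus strand; CLDN4, 73213872 to 73247020, plus strand). Each is valued from 1 exon feature. CLDN4 was read at 11.61, 11.51 and 11.66 in parental Kuramochi and at 6.89, 6.86 and 7.19 in resistant Kuramochi. In OVSAHO it was 12.65, 12.63 and 12.73 in parental and 9.85, 9.88 and 9.68 in resistant cells. The parental libraries lay far above the resistant ones in both lines, with no overlap. The log2 change of CLDN4 was -4.61 ± 0.10 (SE, n = 3 and 3, adjusted p = 4.78e-06) in Kuramochi, a 24.5-fold lower level. In OVSAHO it was -2.86 ± 0.06 (SE, adjusted p = 2.01e-05), a 7.28-fold lower level. EFO-21 also had lower CLDN4 in every resistant library (11.37, 11.34 and 11.28 against 11.69, 11.80 and 11.72), but this was a change of 1.33-fold and did not reach 2-fold (log2 change -0.41, adjusted p = 0.000653). In OV-90 the parental values 8.0 and 7.62 and the resistant values 7.49, 7.24 and 6.62 lay close together, and the change was not past the threshold (-0.69, adjusted p = 0.123). The fall in Kuramochi was larger than that in OVSAHO by 1.75 (adjusted p = 2.02e-06) and larger than the change in EFO-21 by 4.21 (adjusted p = 1.33e-11). Without library 6 CLDN4 still fell in Kuramochi. In that library CLDN4 was 0.10 above the mean of the other parental libraries, which carry KRT5 and KRT6A too.

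CLDN3 showed smaller changes than its neighbour in Kuramochi and OVSAHO, but not in EFO-21 or OV-90. It was read at 9.95, 10.46 and 10.49 in parental and at 8.08, 8.50 and 8.38 in resistant Kuramochi, a log2 change of -1.98 ± 0.18 (SE, adjusted p = 0.000296). In OVSAHO every resistant library (11.62, 11.40 and 11.42) was below every parental one (12.23, 12.23 and 12.08), a change of -0.70 that did not reach 2-fold (adjusted p = 0.00167). EFO-21 gave much the same size, -0.69 (adjusted p = 0.00105), from 10.45, 10.77 and 10.64 to 9.94, 9.94 and 9.90. In OV-90 the parental libraries were themselves apart (8.12 and 6.79), and the resistant values of 6.77, 6.88 and 6.44 overlapped them (-0.75, adjusted p = 0.212). Without parental library 3 of OV-90 the CLDN3 change there was -1.42, against library 2 alone. At baseline CLDN3 and CLDN4 had the same order of means, OVSAHO, EFO-21, Kuramochi and OV-90. Parental OV-90 was 2.84 to 4.72 lower than the other lines for CLDN3 and 3.79 to 4.86 lower for CLDN4. For either gene the neighbours Kuramochi and EFO-21 did not differ past the threshold (CLDN3 -0.32, adjusted p = 0.334; CLDN4 -0.14, adjusted p = 0.201). The annotated transcripts of CLDN3 and CLDN4 share 22 stretches of 50 bases, which are 1.80% of those of CLDN3.

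CLDN7 encodes a claudin of lateral epithelial membranes that binds EPCAM. It lies on chromosome 17 (GRCh37, 7163222 to 7167302, minus strand). It fell in the most lines, 3 of 4. Its values were 6.27, 6.53 and 6.60 in parental and 2.56, 2.48 and 2.38 in resistant Kuramochi, a log2 change of -4.00 ± 0.17 (SE, adjusted p = 2.08e-05) or 16.0-fold. These resistant values lay close above the bottom of the scale (up to 1.87), so the size of this fold is uncertain. In OVSAHO CLDN7 went from 5.74, 5.66 and 5.60 to 3.78, 2.86 and 2.68, a change of -2.56 ± 0.30 (SE, adjusted p = 0.00228). EFO-21 had 4.99, 5.53 and 5.0 in parental and 3.86, 3.40 and 3.83 in resistant libraries, a change of -1.48 ± 0.22 (SE, adjusted p = 0.00285). Parental and resistant libraries did not overlap in these 3 lines. OV-90 went the other way without passing the test (0.59, adjusted p = 0.121), with 6.35 and 5.60 in parental and 6.57, 6.49 and 6.62 in resistant cells. The difference in response between OV-90 and each of the other lines passed the threshold, at 4.59 against Kuramochi (adjusted p = 8.10e-09), 3.15 against OVSAHO (adjusted p = 4.38e-06) and 2.07 against EFO-21 (adjusted p = 0.00017). At baseline the lines were close, and only Kuramochi and EFO-21 differed past the threshold (1.29, adjusted p = 0.000358), with OV-90 and EFO-21 added when library 3 was left out (1.17). Another annotated gene on the same strand, without a row in the table, shares 269 exon bases with CLDN7.

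CLDN9, an inner ear claudin, is at chromosome 16 (GRCh37, 3062924 to 3064506, plus strand) and is valued from 1 exon feature. Its transcripts share 25 stretches of 50 bases (1.63%) with those of CLDN6, which was between 11.87 and 12.13 in OV-90. It fell in OVSAHO from 8.46, 8.54 and 8.35 to 6.04, 5.66 and 6.55, a log2 change of -2.37 ± 0.22 (SE, adjusted p = 0.00104). In Kuramochi it went from 6.64, 6.92 and 7.09 to 6.01, 4.60 and 6.10. That change of -1.32 ± 0.41 (SE) was just past the threshold (adjusted p = 0.0402), and library 17 with 4.60 was well below the other resistant ones. Without library 17 it was -0.83, and without library 4, 5, 6 or 16 the adjusted p was 0.0567, 0.0981, 0.117 and 0.0528. It was 0.0536 in a fit without the mean-variance trend. In OV-90 (-0.05, adjusted p = 0.88) and EFO-21 (0.34, adjusted p = 0.559) parental and resistant libraries overlapped. CLDN9 was highest at baseline in OVSAHO and lowest in EFO-21, where it was 3.79 ± 0.26 (SE, adjusted p = 4.95e-07) lower. Parental OV-90 and Kuramochi could not be told apart for this gene (0.12, 95% interval -0.52 to 0.76).

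In OVSAHO, CLDN4, CLDN7 and CLDN9 fell together with the squamous markers, all 4 of which also fell. In Kuramochi 3 of the 4 squamous markers fell beside 7 members, KRT5 by 5.91, KRT6A by 4.53 and TP63 by 2.22. In OV-90 1 of the 4 fell (TP63) and in EFO-21 0. Of the 5 leukocyte markers, 3 fell in OVSAHO, 2 in EFO-21, 1 in Kuramochi and 0 in OV-90. The 8 markers of ovarian carcinoma epithelium fell in part too, 5 of them in Kuramochi (EPCAM, KRT18, KRT19, MUC16 and WT1), 4 in OVSAHO (EPCAM, KRT7, KRT19 and MUC16) and 0 in OV-90 and EFO-21. Of all genes, 3.83% fell in OVSAHO, 10.6% in Kuramochi, 6.56% in OV-90 and 7.15% in EFO-21. The part of these marker genes in the claudin falls was not tested. In Kuramochi, library 6 differed from the mean of libraries 4 and 5 by between -0.49 and 0.31 over the 10 members, and the falls of CLDN2, CLDN3, CLDN4, CLDN7, CLDN12 and CLDN16 were also called without it, with KRT5 and KRT6A still present in libraries 4 and 5.

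The sequences before the starts of CLDN4 and CLDN7, which fell together in Kuramochi and OVSAHO, and of CLDN11, which moved the other way, are shown so that their motif content can be read. They are the 250 bases upstream of a RefSeq start (GRCh38.p14), 5′ to 3′ on the strand of the gene. Capitals mark matches, on either strand, to CACCTG, the E-box read by the ZEB and SNAI repressors of epithelial genes, or to TGANTCA, the AP-1 site. CLDN7 has a second RefSeq start, whose window holds 0 E-box matches, and the one with E-boxes is shown. CLDN11 also has a second RefSeq start, not shown, and both of its windows hold 0 matches to either motif.
CLDN4, chr7:73830746-73830995, plus strand: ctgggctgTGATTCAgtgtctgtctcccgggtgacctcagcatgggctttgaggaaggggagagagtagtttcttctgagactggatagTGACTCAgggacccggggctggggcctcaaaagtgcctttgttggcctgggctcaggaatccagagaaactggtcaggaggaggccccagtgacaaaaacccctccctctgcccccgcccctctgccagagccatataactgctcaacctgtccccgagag
CLDN7, chr17:7262479-7262728, minus strand: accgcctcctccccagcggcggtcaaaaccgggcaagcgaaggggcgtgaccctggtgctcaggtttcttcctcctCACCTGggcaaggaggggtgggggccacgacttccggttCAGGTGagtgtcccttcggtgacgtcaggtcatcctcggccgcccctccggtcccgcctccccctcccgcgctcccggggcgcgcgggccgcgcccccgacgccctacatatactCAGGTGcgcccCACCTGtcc
CLDN11, chr3:170418618-170418867, plus strand: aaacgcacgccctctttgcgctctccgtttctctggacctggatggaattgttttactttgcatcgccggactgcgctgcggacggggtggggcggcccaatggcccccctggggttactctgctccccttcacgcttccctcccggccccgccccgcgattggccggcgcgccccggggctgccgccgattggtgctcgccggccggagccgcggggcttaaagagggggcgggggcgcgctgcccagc

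The CLDN7 window of 300 bases, which also takes in the 50 bases after the start, held 5 E-box matches, and the CLDN4 window held 2 AP-1 matches and no E-box. Windows were found for 9 of the 10 members, 14 windows in all. An E-box was found for 3 of these 9 genes (CLDN3, CLDN7 and CLDN16), and 20.6% of 35116 RefSeq promoter windows hold it. An AP-1 match was found for 3 genes (CLDN2, CLDN4 and CLDN16), beside 7.71% of all windows. The GC box GGGCGG was found for 7 genes (45.0% of all windows), the TATA box TATAAA for 0 (11.5%) and the grainyhead site AACCGGTT for 0 (0.134%). Both strands were searched, and none of these motifs contains another. Several members have more than 1 window, so a gene has more chances of a match than a window.

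CLDN1, a sealing claudin best known for the barrier of the epidermis, moved in opposite directions between lines. It is on chromosome 3 (GRCh37, 190023496 to 190040235, minus strand), and 94 bases separate it from CLDN16, which runs the other way (190040330 to 190129927). In EFO-21 it fell from 14.83, 14.66 and 14.66 to 12.69, 12.56 and 12.58, a log2 change of -2.10 ± 0.07 (SE, adjusted p = 1.79e-05) or 4.30-fold. Even after this fall EFO-21 had the highest CLDN1 of the resistant lines. In OVSAHO every resistant library (9.51, 9.56 and 9.57) was above every parental one (8.65, 8.65 and 8.92), by 0.81, which did not reach 2-fold (adjusted p = 0.00131). OV-90 rose from 9.05 and 9.91 to 10.57, 10.44 and 10.68, a change of 1.08 ± 0.27 (SE, adjusted p = 0.0384). Without library 2 the OV-90 change was 0.65, and without library 13, 14 or 15 its adjusted p was 0.115, 0.0963 and 0.124. A fit without the mean-variance trend gave 0.0514. In Kuramochi the libraries overlapped (0.35, adjusted p = 0.21). The response of EFO-21 differed from that of OV-90 by 3.19, of Kuramochi by 2.46 and of OVSAHO by 2.91, each with an adjusted p of at most 2.78e-07. At baseline CLDN1 in EFO-21 was 4.70 to 5.97 above the other lines. OV-90 and OVSAHO were 0.74 apart, and 1.17 without library 2, which passed the threshold. P3H2-AS1, the gene on the other side of CLDN1, fell by 1.06 in EFO-21 (adjusted p = 0.00764), where all its libraries were at the bottom, and rose by 1.62 in Kuramochi (adjusted p = 0.00152).

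CLDN16 encodes paracellin-1, a claudin of the kidney tubule needed for magnesium uptake. Like CLDN1 it was highest in EFO-21, at 11.19, 11.03 and 11.08 in parental and 9.75, 9.58 and 9.74 in resistant libraries. That fall was -1.41 ± 0.06 (SE, adjusted p = 4.38e-05), or 2.66-fold. In Kuramochi it fell from 8.40, 8.04 and 7.97 to 6.53, 6.40 and 6.25 (-1.74 ± 0.14 SE, adjusted p = 0.000194), where CLDN1 had not changed past the threshold. In OVSAHO CLDN16 lay between 5.43 and 5.77 in all 6 libraries, and the change was 0.20 (95% interval -0.02 to 0.43). OV-90 was near the bottom, with -0.07 and 2.04 in parental and 2.96, 3.31 and 3.12 in resistant cells. The OV-90 difference of 2.15 was not past the threshold (adjusted p = 0.0585), and with library 2 at the bottom it is not a measured fold change. It passed in the fit of all 23 libraries (adjusted p = 6.05e-05). Against library 3 alone the difference was 1.09, and against library 2 alone, at the bottom, it was 3.20. All 6 differences between parental lines passed the threshold for CLDN16, in the order EFO-21, Kuramochi, OVSAHO and OV-90.

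CLDN2 encodes a channel for cations and water found in leaky epithelia. It lies on the X chromosome (GRCh37, 106143394 to 106174091, plus strand). It showed the largest difference of any tested member, in Kuramochi, where it went from 7.63, 8.08 and 8.01 to 1.44, 2.09 and 2.16. The log2 change was -6.01 ± 0.25 (SE, adjusted p = 1.93e-05). With 1 resistant library at the bottom and the others just above it, no fold is given. In EFO-21 it fell from 4.85, 4.97 and 3.67 to 2.12, 1.90 and 1.92 (-2.52 ± 0.37 SE, adjusted p = 0.00256), again to just above the bottom. OV-90 had 6.26 and 5.82 in parental and 3.51, 4.64 and 4.92 in resistant libraries, which do not overlap. The OV-90 change of -1.68 ± 0.48 (SE) missed the threshold (adjusted p = 0.0516), but passed it in a fit of all 23 libraries together (adjusted p = 0.0116) and in a fit of genes above the 25th percentile of means (adjusted p = 0.0258). In OVSAHO CLDN2 was between 0.02 and 2.07, at or near the bottom in both states. CLDN2 is valued from 2 exon features, and 341 of its annotated exon bases lie opposite RIPPLY1. RIPPLY1 fell in the same lines, by 8.11 in Kuramochi (adjusted p = 8.36e-06) and by 1.95 in EFO-21 (adjusted p = 0.00892). The library kit keeps strand, but whether strand was used in counting is not given in the sources used here, so reads of CLDN2 and RIPPLY1 in the shared bases cannot be told apart.

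CLDN10, a channel-forming claudin of kidney and glands, was above 4 only in EFO-21. It is on chromosome 13 (GRCh37, 96085858 to 96232013, plus strand). It fell there from 7.61, 7.54 and 7.44 to 4.91, 5.58 and 5.26, a log2 change of -2.28 ± 0.17 (SE, adjusted p = 0.000229) or 4.87-fold. Parental EFO-21 exceeded the other lines by 4.20 to 6.74. In OVSAHO the values of 3.29, 3.03 and 3.66 in parental and 2.44, 2.20 and 2.66 in resistant cells did not overlap, but the change of -0.89 (adjusted p = 0.0301) was under 2-fold. Without parental library 8 of OVSAHO it was -1.04 and passed (adjusted p = 0.0355). OV-90 stayed between 2.00 and 2.26, and all 6 Kuramochi libraries were at the bottom. Of the annotated exon bases of CLDN10, 1558 (46.0%) lie opposite DZIP1, whose change in EFO-21 was 0.07 (adjusted p = 0.563).

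CLDN12 differs from most claudins in lacking the tail that binds ZO scaffolds. It is on chromosome 7 (GRCh37, 90013035 to 90142716, plus strand), and its exons share bases with those of GTPBP10 and CDK14 on the same strand. It rose in OV-90 from 4.41 and 5.20 to 6.28, 6.42 and 6.44, by 1.58 ± 0.27 (SE, adjusted p = 0.021). In Kuramochi it fell from 6.38, 6.14 and 5.77 to 5.05, 5.29 and 4.87, by 1.03 ± 0.20 on the log2 scale (SE, adjusted p = 0.00744). The responses of these lines differed by 2.61 (adjusted p = 1.11e-06). Both calls were narrow. The OV-90 rise was lost without library 13, 14 or 15 (adjusted p = 0.0884, 0.0792 and 0.0935), where its size stayed between 1.54 and 1.63, and the Kuramochi fall dropped under 2-fold without library 4 (-0.89) or 18 (-0.93). CDK14, which shares 201 exon bases with CLDN12, fell by 1.20 in Kuramochi (adjusted p = 0.00122), and its change in OV-90 of 0.76 did not reach 2-fold. In EFO-21 CDK14 rose by 2.93 (adjusted p = 4.23e-05), and in OVSAHO its change was -0.36. In OVSAHO CLDN12 was 0.06 apart between states (95% interval -0.20 to 0.32) and in EFO-21 -0.59 (adjusted p = 0.0547). Parental OV-90 was 1.28 to 1.41 below the other lines, which did not differ from each other past the threshold. The differences from Kuramochi and OVSAHO were both -0.89 without library 2 and then under 2-fold.

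**Figure D3:**
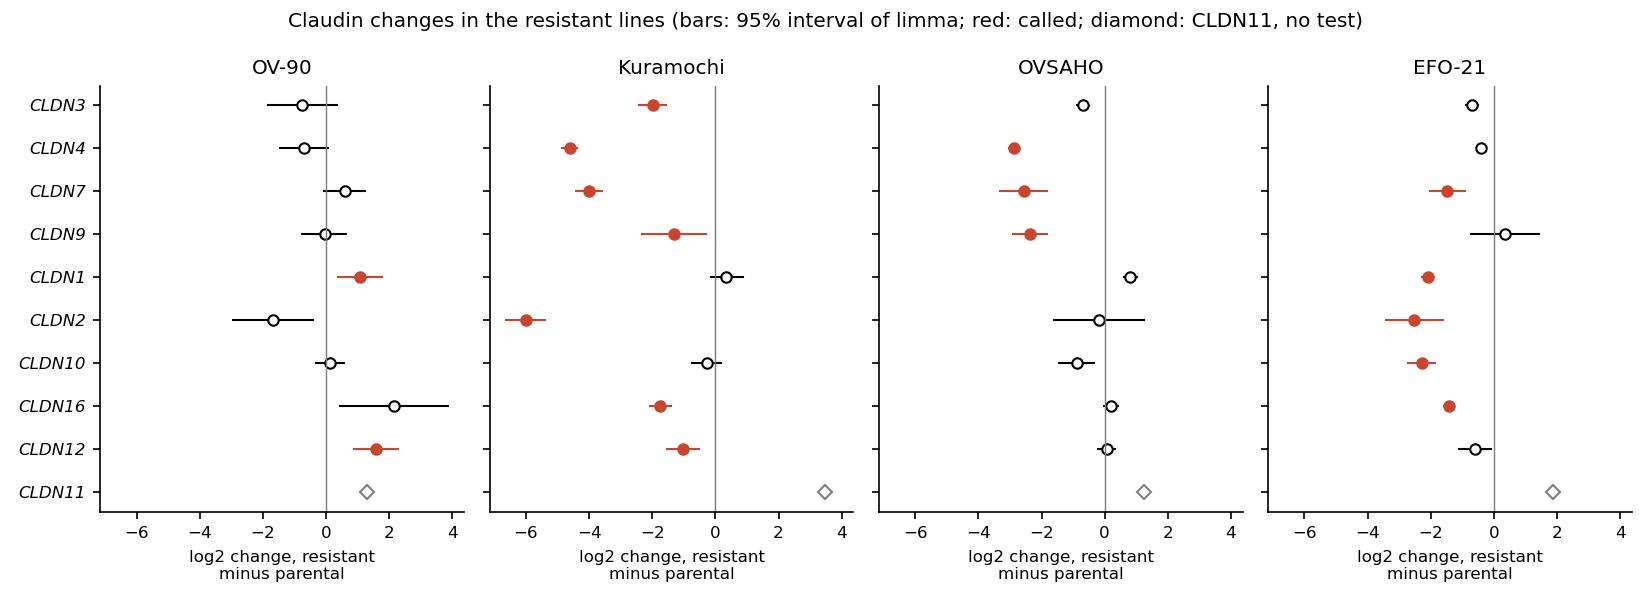
Difference of mean log2 values, resistant minus parental (x axis), for each claudin gene (y axis) in the 4 lines, with the 95% interval of the limma fit as a bar, filled red circles for genes called changed, open circles for those not called and a diamond without interval for CLDN11. The red circles are to the left of 0 in Kuramochi (7), OVSAHO (3) and EFO-21 (5) and to the right in OV-90 (2).

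CLDN11 encodes the claudin of myelin sheaths and of the Sertoli cell barrier in the testis. It is on chromosome 3 (GRCh37, 170136656 to 170172521, plus strand). Its values were 8.65, 8.20 and 8.33 in parental and 11.96, 11.96 and 11.67 in resistant Kuramochi, a difference of 3.47 on the log2 scale or 11.1-fold. EFO-21 went from 10.14, 10.06 and 10.01 to 12.06, 11.94 and 11.86, a difference of 1.88. OV-90 and OVSAHO started from low values. They had 2.88 and 2.45 (OV-90) and 3.11, 3.34 and 2.66 (OVSAHO) in parental libraries. The resistant libraries read 4.20, 3.78 and 3.92 in OV-90 and 4.30, 4.42 and 4.17 in OVSAHO, differences of 1.30 and 1.26. No resistant library overlapped the parental ones of its line, which is the pattern CLDN11 was chosen for. The lines kept their order, EFO-21, Kuramochi, OVSAHO and OV-90, in both states. Resistant Kuramochi (11.86 ± 0.17, SD, n = 3) and resistant EFO-21 (11.95 ± 0.10, SD, n = 3) overlapped in range. At baseline EFO-21 exceeded Kuramochi by 1.68 ± 0.19 (SE, adjusted p = 2.69e-05) and OVSAHO by 7.04 (adjusted p = 1.12e-09). The choice of CLDN11 did not compare lines, but these parental values are part of the differences it used. These p-values are therefore not independent of the choice. Parental OV-90 and OVSAHO did not differ past the threshold (-0.37, adjusted p = 0.15). In library 6 CLDN11 was 0.10 below the mean of the other parental Kuramochi libraries, and without library 2 its difference in OV-90 was 1.51. The neighbours of CLDN11 on either side, SKIL and KRT8P13, had changes of -0.58 and -1.30 in Kuramochi, of 0.33 and -1.07 in EFO-21, of 1.67 and -0.82 in OV-90 and of 0.45 and -0.66 in OVSAHO. SKIL passed the threshold in OV-90 (adjusted p = 0.00978), and KRT8P13 in Kuramochi (adjusted p = 0.000361) and EFO-21 (adjusted p = 0.0311). A gene annotated on the same strand, without a row in the table, shares 683 exon bases (15.8%) with CLDN11.

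The table also holds 9 further claudin genes, which were counted as a group. In OV-90 1 rose (9.50% of all genes did), in Kuramochi 1 (11.8%), in EFO-21 1 (7.11%) and in OVSAHO 0 (3.93%), and 0 fell past the threshold by limma. A count of 1 of 9 is near these shares. At an unadjusted p under 0.05 by limma, 3 of them fell in OV-90, 0 in Kuramochi, 1 in OVSAHO and 1 in EFO-21. At that cutoff 2 rose in OV-90, 3 in Kuramochi, 1 in OVSAHO and 3 in EFO-21. The share of all genes at this cutoff is not given here, so no background stands beside these counts. CLDN5, the claudin of blood vessels, rose by 2.19 in OV-90 (adjusted p = 0.0229) and by 1.18 in EFO-21 (adjusted p = 0.00639), but its values did not exceed 4.69 in any library and were at the bottom in parental OV-90. CLDN14 rose by 1.86 in Kuramochi (adjusted p = 0.0473), where all parental libraries were at the bottom and the highest resistant value was 3.30. Both the OV-90 call of CLDN5 and the Kuramochi call of CLDN14 were lost when any of several libraries was left out, CLDN5 without library 2 (adjusted p = 0.0609), 13 or 14 and CLDN14 without library 5, 6 (adjusted p = 0.134), 16 or 18. CLDN6, an embryonic claudin beside CLDN9 on chromosome 16, and CLDN18, a stomach and lung claudin, are named because of their values. CLDN6 was between 11.87 and 12.13 in OV-90 and at most 3.81 in the other lines, and CLDN18 was between 10.03 and 10.91 in OV-90 and at most 1.85 elsewhere. GREP1, on the other side of CLDN9, fell by 1.49 in Kuramochi (adjusted p = 0.00751).

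Tight junction partners were counted in the same way. Of 33 partner genes, 2 rose and 11 fell in Kuramochi, 6 rose and 2 fell in OV-90, 5 rose and 1 fell in OVSAHO, and 1 rose and 1 fell in EFO-21. Over all genes 11.8% rose and 10.6% fell in Kuramochi, 9.50% and 6.56% in OV-90, 3.93% and 3.83% in OVSAHO and 7.11% and 7.15% in EFO-21. The median log2 change of the partners was -0.37, 0.35, 0.02 and 0.16 in these lines, beside medians over all genes of -0.02, -0.06, 0.0 and 0.01. The scaffold gene TJP1 rose in OV-90 (1.56, adjusted p = 0.0255) and did not pass the threshold in another line. TJP3 and OCLN, which encodes the strand protein occludin, fell in Kuramochi (-1.55, adjusted p = 0.00244; -1.08, adjusted p = 0.00501), the latter by 0.91 and so under 2-fold without library 18. In resistant Kuramochi TJP3 was between 1.86 and 2.11, just above the bottom. MARVELD3, a relative of occludin, fell in Kuramochi (-1.91), where all resistant libraries were at the bottom (1.04 to 1.37), and in OV-90 (-1.03). CRB3, a polarity protein of the apical membrane, fell in OV-90, Kuramochi and OVSAHO (-1.39, -1.40 and -1.14), with an adjusted p of at most 0.0166. It was at the bottom in resistant Kuramochi, and its OVSAHO change was -0.99 without library 9. JAM3, a junctional adhesion molecule, rose in OV-90 (1.22), OVSAHO (1.21) and EFO-21 (1.11), though parental OVSAHO was at the bottom (1.41 to 1.49). ILDR2, a protein of tricellular contacts, fell in Kuramochi (-2.65) and rose in OVSAHO (2.72). The OV-90 calls of TJP1, JAM3, MARVELD3 and CRB3 were lost when resistant library 13, 14 or 15 was left out, with adjusted p between 0.0504 and 0.10, and JAM3 (0.93) was under 2-fold without library 2, as was MARVELD3 (-0.98) without library 3.

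Genes whose products bind or modify claudins formed a further list. Of 9 such genes, 1 rose and 4 fell in Kuramochi, 0 rose and 3 fell in OVSAHO, 0 rose and 3 fell in EFO-21, and 0 rose and 1 fell in OV-90. The shares of all genes that fell were 10.6%, 3.83%, 7.15% and 6.56% in these lines. EPCAM, the partner of CLDN7, fell in Kuramochi from a mean of 6.47 ± 0.18 to 2.69 ± 0.19 (SD, n = 3 and 3), a change of -3.78 (adjusted p = 3.34e-05). In OVSAHO it fell by 3.01 (adjusted p = 1.23e-05), whereas in OV-90 (0.03) and EFO-21 (-0.21) it did not pass the threshold. ST14, which encodes the membrane protease matriptase that cleaves EPCAM, fell in Kuramochi (-4.97), OVSAHO (-3.56) and EFO-21 (-1.46), the 3 lines in which CLDN7 fell, each with an adjusted p of at most 0.00107. All its resistant libraries were at the bottom in Kuramochi and OVSAHO. SPINT1 and SPINT2 encode the inhibitors of that protease. SPINT1 fell in OV-90 (-1.03), Kuramochi (-2.59) and OVSAHO (-1.79), and SPINT2 in Kuramochi (-3.90) and EFO-21 (-1.53). In OV-90, without library 2, the change of SPINT1 was -1.0, just under 2-fold.

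**Figure D4:**
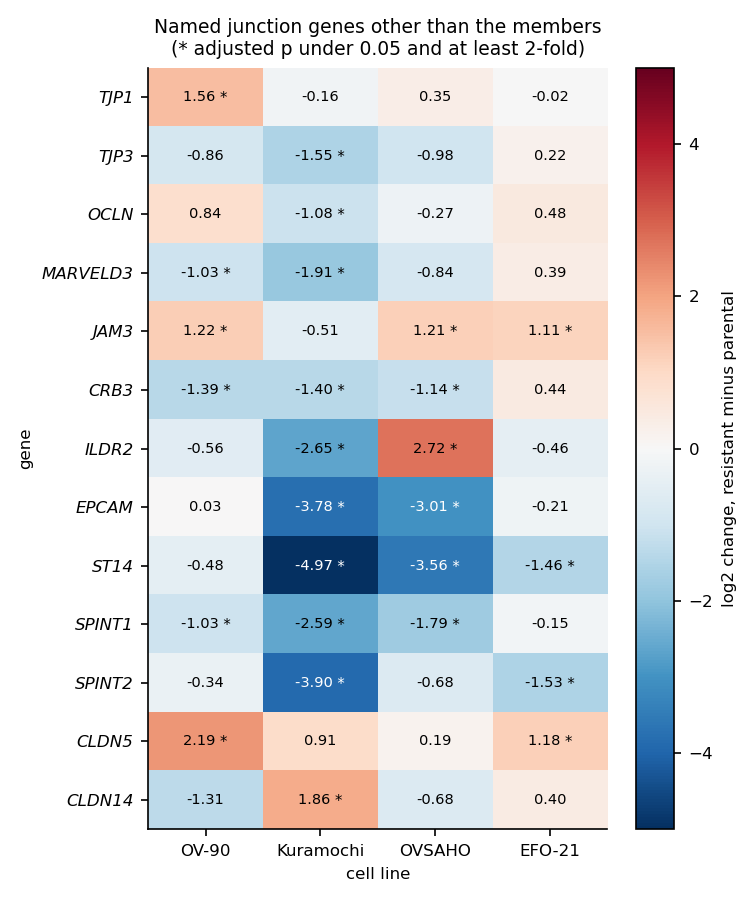
Log2 change, resistant minus parental, of 13 junction and claudin-binding genes (y axis) in the 4 lines (x axis), printed in each cell and coloured from blue (lower) to red (higher); a star marks an adjusted p under 0.05 with at least a 2-fold difference. ST14 has the darkest blue in Kuramochi (-4.97) and OVSAHO (-3.56), and TJP1 has a star in OV-90 alone.

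The differences in response between lines were tested for the 9 members. Between OV-90 and Kuramochi 6 of 9 differed (33.8% of all genes), between OV-90 and OVSAHO 6 (17.1%) and between OV-90 and EFO-21 5 (24.9%). Between Kuramochi and OVSAHO 6 differed (24.3%), between Kuramochi and EFO-21 7 (26.6%) and between OVSAHO and EFO-21 7 (15.7%). All 17 that involved OV-90 had the higher change in OV-90. The comparisons share libraries, so they are not independent of each other.

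The genes closest to each member were found by the root mean square (RMS) difference of the 8 group means after centring, as a description with no test. For CLDN11 the closest were CDH5, AXL and KRT80, at 0.94, 1.11 and 1.14 log2 units. CDH5 encodes the cadherin of blood vessel walls and AXL a receptor tyrosine kinase. CLDN4 was closest to SLPI (0.75), a secreted protease inhibitor, then to MYO5C (0.88) and GLDC (0.90). For CLDN7 these were FKBP1A-SDCBP2 (0.79), CXCL16 (0.80) and SNORA2C (0.80). CLDN3 lay closest to CIART (0.48), ZNF503-AS2 (0.50) and KLF15 (0.55), and CLDN9 to SCARNA2 (0.46), ATP6V1F (0.46) and KRTCAP3 (0.50). Genes near to CLDN1 were SUCLA2-AS1 (0.59) and ESM1 (0.61), and CLDN10 was nearest to KRT78 (0.56), KLF8 (0.59) and TNFSF14 (0.60). The genes nearest to CLDN16 were COL4A1 (0.86), LOC101928004 (0.95) and IGFBP3 (0.98). CLDN2 was nearest to PYGM (0.98), RIPPLY1 (1.06), with which it shares exon bases, and NCALD (1.07). CLDN12 spanned under 3 log2 units over the groups and was left out.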

How the data were processed

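Stranded mRNA libraries of the 23 cultures were sequenced by the authors, aligned to GRCh37/hg19 (per the submitters' processing notes) with an aligner the methods call GSNP, and summarised as 1 value per gene over its exons. The deposited values are log2 expression values, quantile normalized by the authors over all libraries, so a shift common to most genes is not seen. For 16448 genes the value comes from a robust linear model over exon features and for 5210 genes, with CLDN3, CLDN4 and CLDN9 among them, from the mean of log2 values. The counting tool and the aligner version are not given in the sources used here. No columns of other samples were present (0). The exon weight columns, which hold 1 value per gene and none per library, were not used. Library columns name line and state only. Without counts, depth is unknown, and the spread within each group sets the precision.

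Each line was fitted alone with limma (version 3.58.1, R 4.3.3; lmFit, eBayes with a mean-variance trend, two-sided, Benjamini-Hochberg over 21658 genes, no filter, no pseudocount). Parental lines were compared in 1 fit of 11 libraries and responses in 1 fit of 23. An exact permutation test of 3 against 3 libraries cannot go below p = 0.1 and was not used. The fits were tested on simulated data. Symbols came from RefSeq by Gene ID, positions from GENCODE lifted to GRCh37, and promoter windows from RefSeq (GRCh38.p14). The members and lists were chosen with earlier results of these data known. All members are named. Other claudins are named if called in any line, partner and claudin-binding genes if called in 2 or more lines (TJP1, TJP3 and OCLN always), neighbours if called in a line where the member is called, and the 3 nearest genes of members spanning at least 3 log2 units. Some genes that these rules take in are not reported here.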

Additional observations from a re-analysis of the deposited data

Results flagged for a closer look

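The response to resistance differed between lines for 37 of 54 comparisons of the 9 tested members, each by limma's test of the difference between the 2 changes (adjusted p under 0.05, at least 1 on the log2 scale). Of all genes, between 15.7% and 33.8% differed in a pair of lines. The comparisons share libraries and are not independent, and the members were listed with these data known. Values below are the change in the line named before "against" minus the change in the line after it.

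CLDN4 differed by 3.92 for OV-90 against Kuramochi, 2.17 for OV-90 against OVSAHO, -1.75 for Kuramochi against OVSAHO, -4.21 for Kuramochi against EFO-21 and -2.46 for OVSAHO against EFO-21. CLDN7 differed in all 6 pairs, by 4.59, 3.15 and 2.07 for OV-90 against Kuramochi, OVSAHO and EFO-21, by -1.44 and -2.52 for Kuramochi against OVSAHO and EFO-21, and by -1.08 for OVSAHO against EFO-21. CLDN3 set Kuramochi apart, at 1.23 for OV-90 against it and -1.28 and -1.29 for it against OVSAHO and EFO-21. CLDN9 gave 2.31 for OV-90 against OVSAHO, -1.66 for Kuramochi against EFO-21 and -2.71 for OVSAHO against EFO-21.

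CLDN2 differed by 4.33 for OV-90 against Kuramochi, -5.83 for Kuramochi against OVSAHO, -3.50 for Kuramochi against EFO-21 and 2.34 for OVSAHO against EFO-21, with groups at or near the bottom in Kuramochi, OVSAHO and EFO-21. CLDN10 was at the bottom in Kuramochi and close above it in OV-90 (2.00 to 2.26) and resistant OVSAHO (2.20 to 2.66). CLDN10 differed by 1.02 for OV-90 against OVSAHO, 2.41 for OV-90 against EFO-21, 2.01 for Kuramochi against EFO-21 and 1.39 for OVSAHO against EFO-21. CLDN16 differed by 3.88, 1.95 and 3.56 for OV-90 against Kuramochi, OVSAHO and EFO-21, by -1.94 for Kuramochi against OVSAHO and by 1.61 for OVSAHO against EFO-21. The CLDN16 values with OV-90 rest in part on parental library 2, at the bottom (-0.07), and are not measured folds.

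CLDN1 set EFO-21 apart, at 3.19 for OV-90, 2.46 for Kuramochi and 2.91 for OVSAHO against it. CLDN12 differed by 2.61, 1.51 and 2.17 for OV-90 against Kuramochi, OVSAHO and EFO-21 and by -1.09 for Kuramochi against OVSAHO.

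Some of these calls were lost when 1 library was left out. For OV-90 against OVSAHO, CLDN10 was 0.97 without library 2 or 13, 0.85 without 9 and 0.90 without 20, and CLDN16 was 0.89 without library 2. CLDN3 for OV-90 against Kuramochi was 0.56 without library 3. CLDN12 for Kuramochi against OVSAHO was -0.95 without library 4 and -0.99 without 7 or 18. CLDN9 for Kuramochi against EFO-21 was -1.17 without library 17 and -1.37 without 24 (adjusted p = 0.0566 and 0.0556). CLDN7 for OVSAHO against EFO-21 was between -0.87 and -1.0 without library 10, 12, 20, 21 or 22.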

How the results depend on the processing

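No paired analysis was possible because the library columns carry no replicate number. Leaving out 1 library at a time, the members that rose numbered 0 to 3 in OV-90 and 0 in Kuramochi, OVSAHO and EFO-21, and those that fell 0 to 1 in OV-90, 5 to 6 in Kuramochi, 3 to 4 in OVSAHO and 5 in EFO-21. In the same order of pairs as in the text, the counts of members that differed between parental lines were 6 to 7, 7, 8 to 10, 8, 7 and 7, and of differing responses 6 to 7, 4 to 7, 5, 5 to 7, 6 to 7 and 6 to 7. In OV-90 1 member fell, CLDN2, when all 23 libraries were fitted together or when genes under the 25th percentile of means were left out, and 1 member rose, not 2, without the mean-variance trend. With a threshold of 1.5-fold or of no fold, 1 member rose and 5 fell in OVSAHO, but the shares of all genes at these thresholds are not given here. The other counts moved by no more than 1.5 times, and recentring the libraries changed no call. Without libraries 2 and 6 together, chosen after seeing the data, no count between parental lines or of responses moved by more than 1.5 times.

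Signs turned only for differences that had not passed the threshold. Over the fits without 1 library, CLDN9 in OV-90 ranged from -0.47 to 0.36 (library 2 left out), and in OVSAHO CLDN12 from -0.04 (library 7) to 0.13 and CLDN2 from -0.50 to 0.43 (library 21). Between parental lines CLDN9 (OV-90 minus Kuramochi) ranged from -0.30 (library 2) to 0.54 and was -0.19 without libraries 2 and 6, and CLDN7 (OV-90 minus OVSAHO) from -0.07 (library 2) to 0.68 and was -0.07 without both. CLDN12 ranged from -0.14 (library 4) to 0.17 (Kuramochi minus OVSAHO) and from -0.26 to 0.05 (library 6; Kuramochi minus EFO-21), where it was 0.05 without both. The cause was not tested. Between parental lines CLDN1 passed for OV-90 against OVSAHO without library 2 (1.17), CLDN7 for OV-90 against EFO-21 without library 3 (1.17), and CLDN2 for OV-90 against EFO-21 was lost without library 2 (1.32, adjusted p = 0.0586). Depth is unknown, so it is not known which low values are near a detection limit.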
